A study of Mus musculus with 45 samples.

Results

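The 10 genes described here are 6 genes used to mark macrophages at the borders of the brain (Mrc1, Cd163, Lyve1, F13a1, Pf4 and Ms4a7) and 4 genes used to mark monocytes (Ccr2, Ly6c2, Lyz2 and Plac8). They were chosen by name, and all 10 were among the 42929 genes shared by the 3 count tables of the study, which list 56039 genes between them. The study compared microglia, the resident macrophages of the brain, in 7 groups of C57BL/6 mouse samples. Organotypic slices, which are coronal brain sections from P1-4 pups kept alive for 2 weeks in culture, received medium alone (n = 9), TNF at 50 ng/mL (n = 11) or GM-CSF at 20 ng/mL (n = 9) for 24 h, and each sample held sorted microglia pooled from up to 3 slices. Adult females of 10-15 weeks received PBS (n = 4) or LPS at 1 mg/kg by intraperitoneal injection (n = 4), and their microglia were sorted 24 h later after perfusion. Whole brain tissue came from mice given LPS in the same way (n = 4) and from mice that received no injection (n = 4). All microglia were sorted as live cells with high CD11b and intermediate CD45, so the gate did not use any of the 10 genes. The paper describes the slice data as pooled over 4 independent experiments. The labels do not say which sample came from which, and the main tests held no term for experiment. Nothing in the labels said whether slice samples came from separate animals, and p-values measure only the spread between these samples. In bulk RNA of this kind, fewer cells of a type and less RNA per cell cannot be told apart.

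Border macrophages live in the meninges, in the spaces around vessels and in the choroid plexus, and share the transcription factor PU.1 and the CSF1 receptor with microglia. Mrc1 encodes the mannose receptor CD206, Cd163 a scavenger receptor for haemoglobin bound to haptoglobin, and Lyve1 a hyaluronan receptor also made by lymphatic endothelium. F13a1 encodes the A subunit of clotting factor XIII, Pf4 the chemokine platelet factor 4, which is also made by megakaryocytes, and Ms4a7 a four-pass membrane protein. Ccr2 is the chemokine receptor that brings monocytes out of the marrow, Ly6c2 encodes a surface antigen of inflammatory monocytes, Lyz2 is the myeloid lysozyme and Plac8 is a cysteine-rich protein of monocytes and other leukocytes. Macrophages outside the brain, and microglia under some conditions, also make several of these transcripts.

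Ly6c2 and Lyz2 have near-identical neighbours, and the sequences are shown because they set how much of each count can be given to the member itself. The coding sequence of Ly6c2 (chr15:75108543-75111667, minus strand, GRCm38) and that of Ly6c1 (chr15:75045402-75048511, minus strand), an endothelial and leukocyte antigen, each have 396 bases and differ at 9 of them (97.7% identity). Of the distinct 50-base words of the Ly6c2 transcripts, 31.2% occur in another gene, mainly Ly6c1. The coding sequences of Lyz2 (chr10:117278121-117282242, minus strand) and the Paneth cell lysozyme Lyz1 (chr10:117288583-117292838, minus strand) each have 447 bases and differ at 22 (95.1% identity), and 15.4% of the 50-base words and 5.96% of the 75-base words of Lyz2 are shared. For Ccr2 the shared part was 1.91% of its 50-base words, and for the other 7 members it was at most 0.134%. The stretches below are bases 1-150 of the first pair and bases 7-156 of the second, 5′ to 3′, with capitals at the 6 and 15 positions that differ within each pair.
Ly6c2: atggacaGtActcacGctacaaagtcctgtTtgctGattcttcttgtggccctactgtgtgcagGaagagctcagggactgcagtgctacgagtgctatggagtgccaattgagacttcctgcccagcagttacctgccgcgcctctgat
Ly6c1: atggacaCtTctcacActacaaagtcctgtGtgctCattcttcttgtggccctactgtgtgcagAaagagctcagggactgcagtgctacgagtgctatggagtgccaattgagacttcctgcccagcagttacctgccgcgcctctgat
Lyz2: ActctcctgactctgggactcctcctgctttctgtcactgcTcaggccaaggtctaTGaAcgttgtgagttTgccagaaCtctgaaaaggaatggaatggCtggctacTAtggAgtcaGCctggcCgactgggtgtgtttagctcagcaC
Lyz1: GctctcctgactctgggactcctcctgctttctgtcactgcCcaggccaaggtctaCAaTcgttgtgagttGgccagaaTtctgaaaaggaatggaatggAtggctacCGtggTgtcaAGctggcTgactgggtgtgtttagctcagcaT

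Promoters were read from RefSeq (GRCm38.p6), which held 9 of the 10 members, as the 250 bases before the gene's start, and were searched on both strands for 4 motifs. GAGGAA, the core bound by PU.1, occurred in 5 of the 9 (Mrc1, F13a1, Pf4, Ly6c2 and Plac8) and in 23.3% of the 32851 promoters of the same length. None of the 9 windows held the STAT-type motif TTCNNNGAA (7.02% of promoters), an NF-kB-type motif (GGGA, any base, then TTTCC, 0.356%) or an interferon-type motif (GAAA, any 2 bases, then GAAA, 2.98%). The promoters of Mrc1, which moved with TNF, and F13a1, which moved with LPS in adult microglia, are shown with the GAGGAA matches in capitals. The Mrc1 window (chr2:14229164-14229413, plus strand) holds 3 matches, all read on the opposite strand as TTCCTC, and the F13a1 window (chr13:37050245-37050494, minus strand) holds 1.
Mrc1: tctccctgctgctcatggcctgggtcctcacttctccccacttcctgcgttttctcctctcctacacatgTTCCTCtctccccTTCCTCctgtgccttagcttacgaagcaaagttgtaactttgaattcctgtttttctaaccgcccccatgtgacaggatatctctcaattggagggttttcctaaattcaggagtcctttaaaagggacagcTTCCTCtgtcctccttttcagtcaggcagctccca
F13a1: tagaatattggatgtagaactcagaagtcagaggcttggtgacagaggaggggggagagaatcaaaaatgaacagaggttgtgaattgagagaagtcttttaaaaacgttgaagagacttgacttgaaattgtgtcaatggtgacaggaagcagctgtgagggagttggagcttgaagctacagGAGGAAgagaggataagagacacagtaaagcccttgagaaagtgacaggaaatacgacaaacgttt

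Slice libraries held 5973364-9165485 counts, those of adult microglia 11391564-14216005, and those of whole brain 8199863-10368578. Levels are given as counts per 1000000 (CPM) on library sizes scaled by the trimmed mean of M-values, and as CPM per kb of exon where genes are compared with each other. A gene was called where edgeR's quasi-likelihood test gave a Benjamini-Hochberg adjusted p under 0.05 over all genes tested and the fold was over 1.5. In the sorted microglia, the 12 microglia genes that were looked at summed to 53324-58924 CPM with PBS, against 585-652 CPM in untreated brain. The same sum was 20247-30000 CPM in slices in medium, 8592-11779 CPM with TNF and 14059-16440 CPM with GM-CSF.

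In slice microglia the 10 genes fell into levels that differed by orders of magnitude. Lyz2 stood highest in medium at 3809 ± 1035 CPM per kb (SD, n = 9). Ms4a7 (56.9 ± 27.3), Pf4 (52.6 ± 26.7) and F13a1 (44.8 ± 16) followed and lay within one SD of each other, and Mrc1 came next at 15.1 ± 5.4 CPM per kb. Lyve1 (1.06 ± 1.08 CPM per kb), Cd163 (0.727 ± 0.546) and Ccr2 (0.164 ± 0.220) were low and overlapped, while Ly6c2 and Plac8 had no count in any of the 9 libraries in medium. The slice sample titles also carry a code (1A, 1B, 2A or 2B) whose meaning the labels do not give, and values within codes are printed where a call rests on them. The low genes were patchy: of 29 slice libraries, 22 held a Cd163 count, 17 a Lyve1 count and 12 a Ccr2 count.

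**Figure D1:**
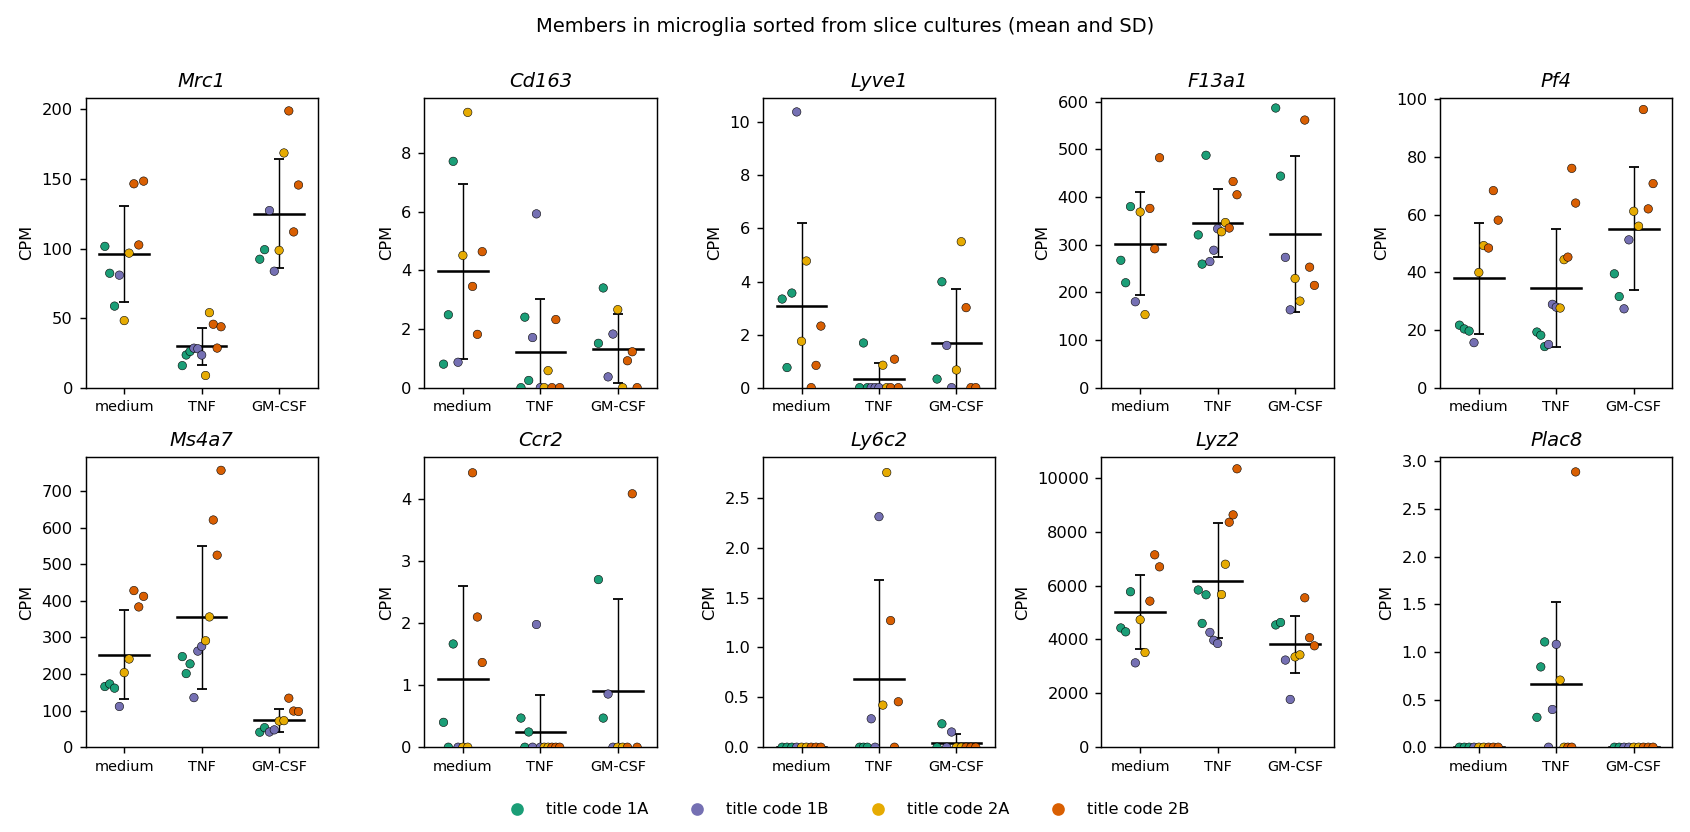
CPM of each of the 10 genes (vertical axis, linear and on its own scale for each gene) in the slice libraries by treatment, 1 point per library coloured by the title code, with the group mean as a bar and the SD as an error bar. Mrc1 is lower with TNF, Ms4a7 is lower with GM-CSF, and Ly6c2 and Plac8 have no count in medium.

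Mrc1 and Lyve1 were lower in slices given TNF, while F13a1, Pf4, Ms4a7 and Lyz2 were not called. Of the 7 members that passed the filter on low counts, 2 were called, both lower, where 20.8% of the 11313 genes tested were called and 11.7% were called lower. Lyve1 passed the filter mainly through its libraries in medium and with GM-CSF. The 2 of 7 thus depends in part on the groups where Lyve1 is high. Mrc1 ranged from 48.2 to 148 CPM in medium (median 96.7) and from 8.73 to 53.9 CPM with TNF (median 28). The highest TNF library stood above the lowest library in medium, and the other 10 stood below all libraries in medium. The log2 fold change was -1.70 (SE 0.24), or 3.25-fold lower, with an adjusted p of 8.75e-07. It was -1.73 within the title codes 1A and 1B and -1.60 within 2A and 2B (adjusted p = 1.32e-07 and 0.00485). Lyve1 ranged from 0 to 10.4 CPM in medium (median 2.32) and from 0 to 1.68 CPM with TNF (median 0), with 8 of 11 TNF libraries at 0 and 1 of 9 in medium. Its log2 fold change was -3.15 (SE 0.92, adjusted p = 0.00519). It rested on 201 counts in medium and 26 with TNF, and was -3.81 within 1A and 1B (adjusted p = 0.0156) and -2.30 within 2A and 2B (adjusted p = 0.244).

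The other border macrophage members did not pass the test with TNF. Cd163 ranged from 0.802 to 9.40 CPM in medium and from 0 to 5.93 CPM with TNF, with 5 of 11 TNF libraries at 0. The difference of -1.70 (95% interval -3.22 to -0.17) had an adjusted p of 0.0690, and it was -2.42 (adjusted p = 0.00989) without TNF replicate 5. With limma-voom it was called lower (-2.90, adjusted p = 0.00566). F13a1 averaged 302 ± 108 CPM in medium and 345 ± 70.5 with TNF (log2 fold change 0.19, 95% interval -0.27 to 0.66). Pf4 averaged 37.9 ± 19.3 and 34.6 ± 20.5 CPM (-0.13, -0.78 to 0.51), and Ms4a7 253 ± 121 and 355 ± 195 CPM (0.48, -0.14 to 1.11).

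Monocyte genes were few in TNF-treated slices, apart from Lyz2. Lyz2 averaged 5012 ± 1362 CPM in medium and 6175 ± 2132 CPM with TNF and was not called (log2 fold change 0.30, 95% interval -0.09 to 0.70), and its neighbour Lyz1 lay at 6.12 ± 4.08 and 5.84 ± 2.88 CPM. Ly6c2 and Plac8 did not pass the filter. Ly6c2 had 50 counts over 6 of 11 TNF libraries and 0 in medium, at least 14-fold higher against a floor of 3 counts over the group, and 3 counts in 2 of the 9 GM-CSF libraries. Plac8 had 52 counts over 7 of 11 TNF libraries and 0 in both medium and GM-CSF, at least 14.6-fold and 14-fold higher. Of the 11 TNF libraries, 3 held both transcripts and 1 held neither. When all 25192 genes with a count were tested without the filter, the adjusted p was 0.00179 for Ly6c2 and 0.00222 for Plac8. Neither had a count in medium, and both entered that test through the TNF libraries where they are high. These p-values are therefore no separate support for a rise. TNF replicate 8 held 19 of the Ly6c2 counts, and TNF replicate 11 held 19 of the Plac8 counts. Ccr2 was at 0 in 8 of 11 TNF libraries and in 4 of 9 in medium, with 20 and 74 counts (adjusted p = 0.186 without the filter).

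Other markers of the same cell types moved in both directions with TNF. Of 12 other border macrophage genes, 9 were tested and 4 were higher and 2 lower, with a median log2 fold change of 0.42 against -0.03 over all genes. Siglec1, the sialoadhesin of tissue macrophages, rose from 33.9 ± 13 to 161 ± 47.0 CPM (2.25, adjusted p = 3.27e-11) and Clec4n, the lectin Dectin-2, from 94.9 ± 34.3 to 450 ± 159 CPM (2.24, adjusted p = 6.40e-10). Gas6, a ligand of the TAM receptors, fell from 698 ± 83.9 to 122 ± 28.2 CPM (-2.52, adjusted p = 3.73e-20), and Folr2, a folate receptor, from 6.87 ± 2.65 to 3.14 ± 1.12 CPM (-1.12, adjusted p = 0.00114). Of 12 other monocyte genes, 6 were tested and 2 rose, the fibronectin gene Fn1 (1188 ± 444 to 2607 ± 846 CPM) and the haptoglobin gene Hp (2.33 ± 2.82 to 19.1 ± 9.25 CPM), while 1 fell. Of 10 neutrophil genes 4 were tested, 2 were called higher and 2 were not called. S100a8 among them averaged 2.53 ± 2.98 CPM in medium and 11.7 ± 15.4 with TNF. The sum of the 10 was 124-201 CPM in medium and 94.0-219 CPM with TNF. All 12 microglia genes fell, P2ry12, a purine receptor, from 1266 ± 230 to 142 ± 25 CPM. The summed level of the 6 border macrophage members was 399-1108 CPM in medium and 445-1269 CPM with TNF, and the part of admixed cells in these changes was not tested.

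Ms4a7 was lower in slices given GM-CSF, and the other 6 members tested were not called. Of all genes tested, 10.8% were called and 5.96% were called lower. Ms4a7 ranged from 111 to 428 CPM in medium (median 204) and from 41.0 to 134 CPM with GM-CSF (median 71.4). The groups overlapped between 111 and 134 CPM. The log2 fold change was -1.79 (SE 0.33), or 3.47-fold lower, with an adjusted p of 0.000139. Mrc1 averaged 125 ± 38.9 CPM with GM-CSF against 96.2 ± 34.4 in medium (log2 fold change 0.38, 95% interval -0.12 to 0.88). Pf4 averaged 55.1 ± 21.3 CPM against 37.9 ± 19.3 in medium and was not called (0.54, adjusted p = 0.256). It was called with the title codes as a term in the fit (0.61, adjusted p = 0.00260).

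The remaining members gave no call with GM-CSF. F13a1 averaged 323 ± 164 CPM against 302 ± 108 in medium (log2 fold change 0.10, 95% interval -0.39 to 0.58). Lyz2 averaged 3814 ± 1067 CPM against 5012 ± 1362 (-0.39, -0.81 to 0.02). Cd163 lay at 1.32 ± 1.17 CPM (-1.56, -3.17 to 0.05) and Lyve1 at 1.68 ± 2.03 CPM (-0.86, -2.60 to 0.88). The interval of Cd163 runs from a fall of several fold to no change, and that of Lyve1 takes in changes in both directions. With limma-voom in place of edgeR, Cd163 was called lower with GM-CSF (-1.97, adjusted p = 0.0464). Of the 9 other border macrophage genes tested, Clec4n (1.06) and Dab2, a clathrin adaptor (0.81), rose, and Gas6 (-0.997) and Folr2 (-1.25) fell. Among the 6 other monocyte genes tested, Fn1 rose from 1188 ± 444 to 2380 ± 751 CPM (1.00, adjusted p = 0.00134) and none fell.

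The TNF and GM-CSF groups were compared with the same medium libraries, so they were also set against each other. Of 7 members, 3 were called, against 16.2% of all genes. Mrc1 was lower with TNF than with GM-CSF in every library: the highest TNF library stood at 53.9 CPM and the lowest GM-CSF library at 83.7 CPM (log2 difference -2.08, SE 0.24, adjusted p = 3.10e-08). Ms4a7 was higher with TNF in every library, from 136 CPM upward against at most 134 CPM with GM-CSF (2.28, SE 0.33, adjusted p = 2.34e-06). Lyz2 was 0.70 higher on the log2 scale with TNF (SE 0.19, adjusted p = 0.00618), with 7 of 11 TNF libraries above all GM-CSF libraries. The Lyz2 call was lost with library totals in place of scaled library sizes (0.52) and within title codes 1A and 1B (0.41, against 0.96 within 2A and 2B). Lyve1 missed the call (-2.28, adjusted p = 0.0527), and passed it when any of 7 single libraries was left out (adjusted p = 0.0131 to 0.0459). Pf4 missed it as well (-0.68, adjusted p = 0.108) and passed with library totals (-0.85, adjusted p = 0.0303), with the title codes as a term (-0.66, adjusted p = 0.000478) and without TNF replicate 10 (-0.86, adjusted p = 0.0305). Cd163 (-0.13, adjusted p = 0.922) and F13a1 (0.10, adjusted p = 0.798) did not pass.

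**Figure D2:**
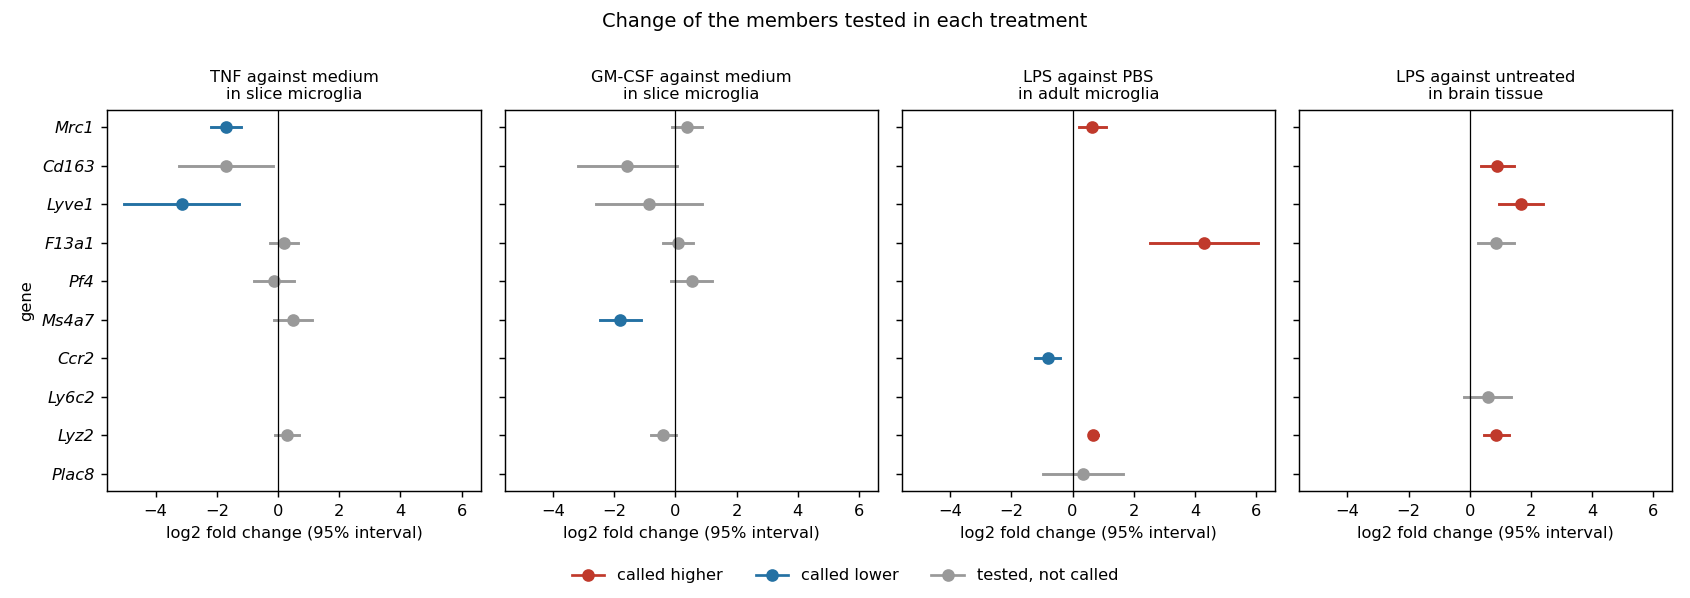
Log2 fold change (horizontal axis, with its 95% interval) of each member that passed the filter in 4 comparisons, coloured by whether the gene was called higher, called lower or not called. Only Mrc1, F13a1 and Lyz2 were tested in both slices and adult microglia, and none of them is called in the same direction in both. F13a1 in adult microglia is the only log2 fold change past 4.

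Ms4a7 and Pf4 followed the title code of the slice samples. In medium, Ms4a7 lay at 111-173 CPM in the 4 libraries of 1A and 1B and at 204-428 CPM in the 5 libraries of 2A and 2B. With TNF the ranges were 136-276 CPM (n = 6) and 291-757 CPM (n = 5), and with GM-CSF 41.0-53.4 CPM (n = 4) and 71.4-134 CPM (n = 5). Ms4a7 was therefore higher under 2A and 2B without overlap in all 3 treatments, and was 1 of 12 such genes among the 11313 tested (0.106%). Pf4 was separated in medium (15.6-21.6 against 39.9-68.3 CPM) and with GM-CSF (27.3-51.2 against 56.0-96.4 CPM), and overlapped with TNF (14.2-28.9 against 27.6-76.0 CPM). The other members overlapped between the codes in every treatment. The fall of Ms4a7 with GM-CSF was present on both sides, from a mean of 153 to 45.8 CPM under 1A and 1B (log2 fold change -1.74, adjusted p = 2.16e-06) and from 334 to 94.9 CPM under 2A and 2B (-1.80, adjusted p = 0.000193). With the codes as a term in the fit, Ms4a7 was also called higher with TNF than in medium (0.60, adjusted p = 9.25e-06).

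The 7 members tested did not vary as 1 block across the 29 slice libraries. After the treatment means were subtracted, Pearson's r of log2 CPM over the 21 pairs ran from -0.23 to 0.90 with a median of 0.11. Pf4 and Ms4a7 formed the closest pair (0.90), followed by F13a1 with Lyz2 (0.70) and Ms4a7 with Lyz2 (0.70). With the means of the title codes also subtracted, Pf4 with Ms4a7 went to 0.54 and Ms4a7 with Lyz2 to 0.05, while F13a1 with Lyz2 stayed at 0.69. The points share their library, its depth and its cells, so these values are a description. Cd163 and Lyve1, which rest on few counts, had r from -0.23 to 0.11 with the other members. Among all genes tested, Clec12a, a myeloid inhibitory lectin, varied most like both Pf4 (0.92) and Ms4a7 (0.93), and these went to 0.74 and 0.52 with the code means subtracted. Samhd1, a dNTP hydrolase, was nearest to F13a1 (0.83, and 0.79 with code means subtracted), Fxyd5 to Lyz2 (0.91 and 0.67), Rars to Mrc1 (0.75 and 0.67), Nfkbia to Cd163 (0.64 and 0.62) and Mrgpre to Lyve1 (0.62 and 0.69).

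**Figure D3:**
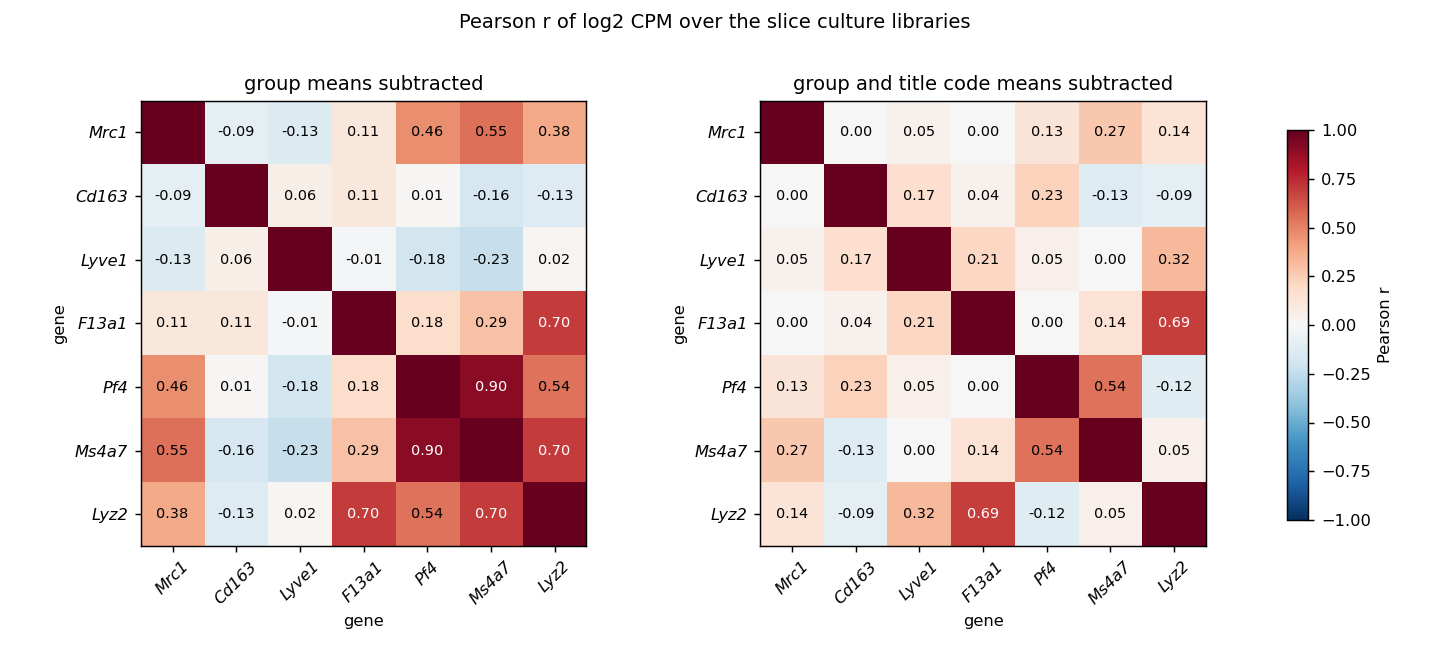
Pearson's r of log2 CPM between members over the 29 slice libraries, with treatment means subtracted (left) and with treatment and title code means subtracted (right), on a colour scale from -1 to 1. Pf4 with Ms4a7 goes from 0.90 to 0.54 between the panels, and F13a1 with Lyz2 from 0.70 to 0.69.

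In adult microglia F13a1, Lyz2 and Mrc1 were higher with LPS and Ccr2 was lower. Of the 5 members that passed the filter 4 were called, against 27.4% of the 12987 genes tested. F13a1 passed the filter only through its LPS libraries, so this count depends in part on the group where it is high. F13a1 stood at 0.358, 1.08, 1.13 and 0.144 CPM in the PBS libraries and at 11.3, 2.91, 16.9 and 22.1 CPM in the LPS libraries. All LPS libraries were above all PBS libraries, and replicate 2 was the lowest of them. The log2 fold change was 4.30 (SE 0.76, 19.7-fold, adjusted p = 0.00194), and it was 4.64 without that library. F13a1 overlaps 2 annotated antisense genes, and the sources used here do not state whether counting used strand.

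Mrc1 and Lyz2 rose by a smaller factor. Mrc1 was at 13.6, 9.47, 8.04 and 9.50 CPM with PBS and at 17.9, 20.3, 12 and 13.3 CPM with LPS. The groups overlapped, with 2 LPS libraries above the highest PBS library. The log2 fold change was 0.64 (SE 0.20, adjusted p = 0.0184), and the call was lost when any of 5 of the 8 libraries was left out: LPS replicates 1 (0.57, adjusted p = 0.0557) and 2 (0.51, below the fold limit) and PBS replicates 2, 3 and 4 (0.61, 0.54 and 0.61, adjusted p = 0.0522 to 0.0590). Lyz2 was at 312, 362, 323 and 325 CPM with PBS and at 552, 510, 522 and 539 CPM with LPS, without overlap (0.68, SE 0.07, adjusted p = 7.16e-06). Lyz1 had 3 counts over the PBS libraries and 4 over the LPS libraries.

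Ccr2, the monocyte chemokine receptor, was at 6.67, 6.31, 6.11 and 6.77 CPM with PBS and at 4.22, 4.19, 2.84 and 3.45 CPM with LPS. The groups did not overlap, and the log2 fold change was -0.81 (SE 0.19, adjusted p = 0.00296). Plac8 was at 0.573, 1.00, 0.322 and 1.30 CPM with PBS and at 1.53, 0.0855, 1.07 and 1.32 CPM with LPS, and was not called (0.33, 95% interval -0.98 to 1.65). Ly6c2 had 7, 16, 3 and 4 counts with PBS and 0, 2, 1 and 3 with LPS and did not pass the filter (-2.17, adjusted p = 0.0285 when all genes were tested).

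The other 4 border macrophage members were close to 0 in adult microglia under both conditions. Cd163 had 14 counts over the PBS libraries and 5, all in 1 library, over the LPS libraries. Lyve1 had at most 2 counts, Pf4 at most 6 and Ms4a7 at most 7 in any library. All Pf4 libraries with LPS (0.367-0.513 CPM) lay above all those with PBS (0.0804-0.288 CPM), and Pf4 did not pass the filter. The level of F13a1 with LPS, 1.98 CPM per kb on average, stood below that of Mrc1 at 2.49 CPM per kb. The others were at 0.590 (Pf4), 0.0754 (Ms4a7), 0.0175 (Cd163) and 0.0126 CPM per kb (Lyve1). The sum of the 6 border macrophage members was 9.65-14.9 CPM with PBS and 24.3-36.1 CPM with LPS. Of 7 other border macrophage genes tested, 3 rose with LPS and 1 fell. Cbr2, a carbonyl reductase, went from 0.515 ± 0.343 to 7.72 ± 2.79 CPM (3.88, adjusted p = 2.67e-05). Fn1 went from at most 0.717 CPM with PBS to 85.9, 24.3, 113 and 186 CPM with LPS, and Siglec1 from 1.94-2.95 to 97.6, 13.4, 70.0 and 99.3 CPM. Both were lowest in the same LPS replicate 2 as F13a1, as was Dab2 (17.3 ± 2.17 CPM with PBS, 95.1 ± 35.1 with LPS). Mrc1 was highest in that replicate, at 20.3 CPM.

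Other markers moved in both directions beside Ccr2. Of 12 other monocyte genes 4 were tested, and 2 rose (Fn1, 8.01, and Treml4, 1.43) and 1 fell (Chil3, -4.24). The summed level of the 12 was 6.88-11.4 CPM with PBS and 27.0-192 CPM with LPS. The monocyte gene Vcan was near 0 in both groups (0.0941 ± 0.0737 CPM with PBS, 0.265 ± 0.0842 with LPS), and Chil3 went from 5.23 ± 1.69 to 0.268 ± 0.347 CPM. Neutrophil genes fell with LPS in 5 of the 6 tested: Ltf from 10.5 ± 2.74 to 0.420 ± 0.508 CPM, Camp from 5.64 ± 1.55 to 0.127 ± 0.255 and S100a8 from 14.6 ± 5.49 to 2.04 ± 0.718. The summed level of 10 neutrophil genes was 627-725 CPM with PBS and 448-676 CPM with LPS, of which Csf3r, the G-CSF receptor gene, held 627 CPM on average with PBS. Of 6 platelet genes only Gp9, a von Willebrand receptor subunit, passed the filter, and it went from 31.7 ± 2.12 to 7.90 ± 2.51 CPM, while Itga2b was at 0.202 ± 0.158 and 0.520 ± 0.270 CPM. In untreated brain Gp9 was at 0.201-0.485 CPM, and the other platelet genes were near 0 in adult microglia. The part of these cells in the levels of Ccr2, Ly6c2 and Pf4 was not tested.

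**Figure D4:**
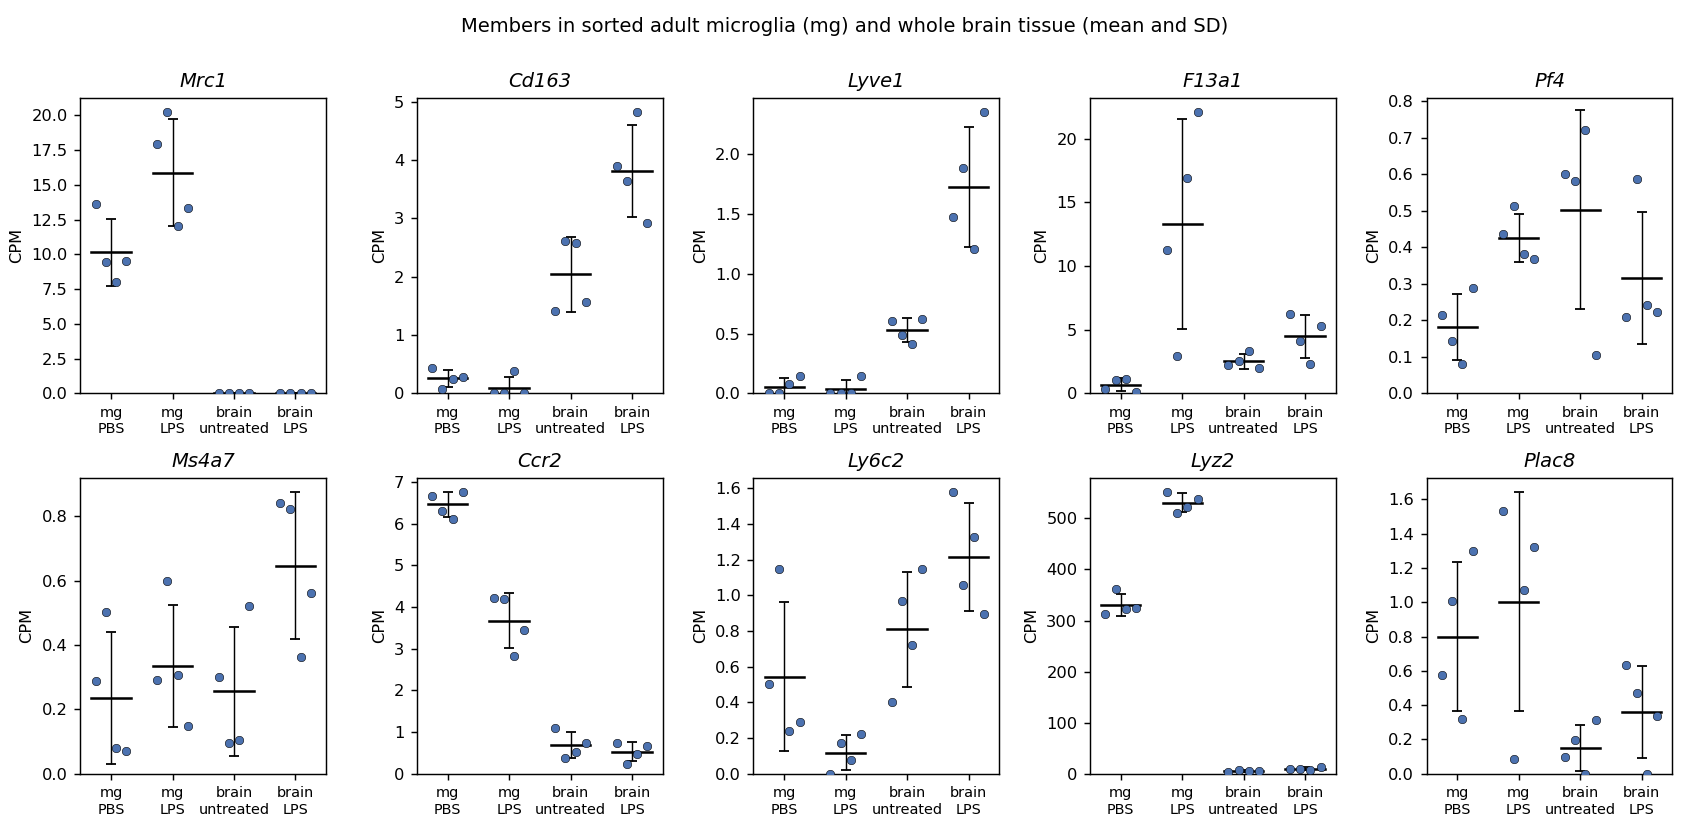
CPM of each of the 10 genes (vertical axis, linear and on its own scale) in sorted adult microglia (mg) and in whole brain tissue, 1 point per library, n = 4 per group, with the mean as a bar and the SD as an error bar. F13a1, Lyz2, Ccr2, Pf4 and Ly6c2 are separated between PBS and LPS in microglia, the last 2 on at most 16 counts per library. Cd163, Lyve1 and Lyz2 are separated between untreated and LPS in brain. Mrc1 is listed at 0 in all brain libraries, which is not read as absence. The 2 tables were normalized separately.

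In whole brain Lyve1, Cd163 and Lyz2 were higher with LPS. Of 5 members that passed the filter 3 were called, all higher, against 3.18% of the 15083 genes tested (2.63% higher). Lyve1 passed the filter only through its LPS libraries, so the 3 of 5 depends in part on the group where it is high. Lyve1 was at 0.602, 0.485, 0.413 and 0.63 CPM in untreated brain and at 1.47, 1.88, 1.21 and 2.35 CPM with LPS. The groups did not overlap, on 4-6 counts per untreated library and 10-21 per LPS library (log2 fold change 1.68, SE 0.34, adjusted p = 0.00406). Cd163 was at 1.4, 2.62, 2.58 and 1.56 CPM untreated and 3.89, 3.65, 4.82 and 2.91 CPM with LPS. The groups did not overlap (0.89, SE 0.25, adjusted p = 0.0321). The call of Cd163 was lost without any of LPS replicates 1, 2 and 3 (adjusted p = 0.0587, 0.0529 and 0.0523) or untreated replicates 1 and 4 (0.108 and 0.104), and with DESeq2 (0.0514).

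Lyz2 went from 4.01, 6.98, 6.09 and 4.80 CPM to 9.68, 9.88, 7.48 and 13 CPM in brain. The groups did not overlap (log2 fold change 0.87, SE 0.19, adjusted p = 0.00913), and Lyz1 had 4 counts untreated and 0 with LPS. F13a1 was at 2.21, 2.52, 3.30 and 1.98 CPM untreated and at 6.21, 4.12, 2.29 and 5.27 CPM with LPS. LPS replicate 3 lay among the untreated libraries, and the difference of 0.84 missed the call (adjusted p = 0.0660), which it passed without that library (1.06, adjusted p = 0.00174). Ly6c2 was at 0.810 ± 0.324 CPM untreated and 1.22 ± 0.301 with LPS (0.58, adjusted p = 0.350). Its neighbour Ly6c1 rose from 24.1 ± 2.81 to 71.8 ± 14.1 CPM (1.57, adjusted p = 0.000216), and part of the Ly6c2 counts cannot be told apart from it.

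Mrc1 was listed at 0 in all 8 brain libraries, including those of the mice given LPS. It was 1 of 160 genes listed at 0 in all brain libraries among the 8464 protein-coding genes at or above its level in PBS microglia. The 160 included Ivns1abp (2993 CPM in PBS microglia), Plxdc2 (1188 CPM) and Glul (313 CPM), and why they are at 0 was not tested. The 0 is therefore not read as absence of Mrc1 from brain, and no level or fold is given for Mrc1 there. Pf4, Ms4a7, Ccr2 and Plac8 had 0 to 11 counts per brain library and did not pass the filter. Ms4a7 had 10 counts untreated and 23 with LPS (adjusted p = 0.284 without the filter), Ccr2 27 and 19, Pf4 20 and 11 and Plac8 6 and 13. Beside the members, Siglec1 (1.57) and the scavenger receptor Stab1 (0.72) rose among the 7 other border macrophage genes tested, and none of the 4 other monocyte genes tested was called. Of 8 endothelial genes tested 4 rose, among them Cldn5 (0.78) and Pecam1 (1.09), and 1 fell (Itm2a, -0.95). Of 3 lymphatic endothelial genes tested, Flt4 rose (0.68), and Prox1 (0.11) and Pdpn (0.09) were not called. The neutrophil gene S100a9 went from 0.253 ± 0.0605 to 2.19 ± 0.688 CPM (3.05). The part of each cell type in the rise of Lyve1 and Cd163 was not tested.

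The effect of LPS was compared between sorted microglia and brain tissue in 1 joined fit. Of 7 members that could be compared, 2 differed, against 19.7% of 16676 genes. F13a1 rose by 3.45 more on the log2 scale in microglia (SE 0.86, adjusted p = 0.00639). Ly6c2 differed by -2.74 (SE 0.83, adjusted p = 0.0122), on a fall from 30 to 6 counts in microglia and a difference from 32 to 43 counts in brain. Part of the Ly6c2 counts in brain cannot be told apart from Ly6c1, which rose there with LPS. Cd163 (-2.23, adjusted p = 0.0714), Lyve1 (-2.12, adjusted p = 0.253), Ccr2 (-0.49, adjusted p = 0.483), Plac8 (-0.89, adjusted p = 0.623) and Lyz2 (-0.20, 95% interval -0.59 to 0.20) did not pass. Cd163 passed with DESeq2 (-2.37, adjusted p = 0.0264), with limma-voom (-2.82, adjusted p = 0.0136), without PBS microglia replicate 2 (-2.54, adjusted p = 0.0417) and without LPS microglia replicate 3, which held all its LPS counts there (-5.50, adjusted p = 0.00145). Lyve1 passed without LPS microglia replicate 4 (-4.27, adjusted p = 0.0436). The tissue, the kit and the control treatment, PBS in one and no injection in the other, changed together, so their parts in these differences cannot be told apart.

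Set beside whole brain, Lyve1, Cd163 and F13a1 were at a lower CPM in sorted PBS microglia. Pf4 and Ms4a7 overlapped between the groups, and Mrc1 had no ratio. The ratio of mean CPM in PBS microglia to untreated brain was 9.75 to 340 for the 12 microglia genes, with a median of 193. It was 0.106 for Lyve1, 0.126 for Cd163, 0.270 for F13a1, 0.362 for Pf4 and 0.921 for Ms4a7. Few counts lay behind some of these, in PBS microglia and untreated brain: 13 and 10 for Ms4a7, 10 and 20 for Pf4 and 3 and 21 for Lyve1. Of the monocyte genes, Lyz2 stood at 60.4, Ccr2 at 9.45, Plac8 at 5.26 and Ly6c2 at 0.672. The 12 other border macrophage genes spread from 0 to 40.4 with a median of 0.764, and neuronal genes had a median ratio of 0.000196. The 2 tables were normalized separately and made with different kits, and the ratios are a description with no test.

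**Figure D5:**
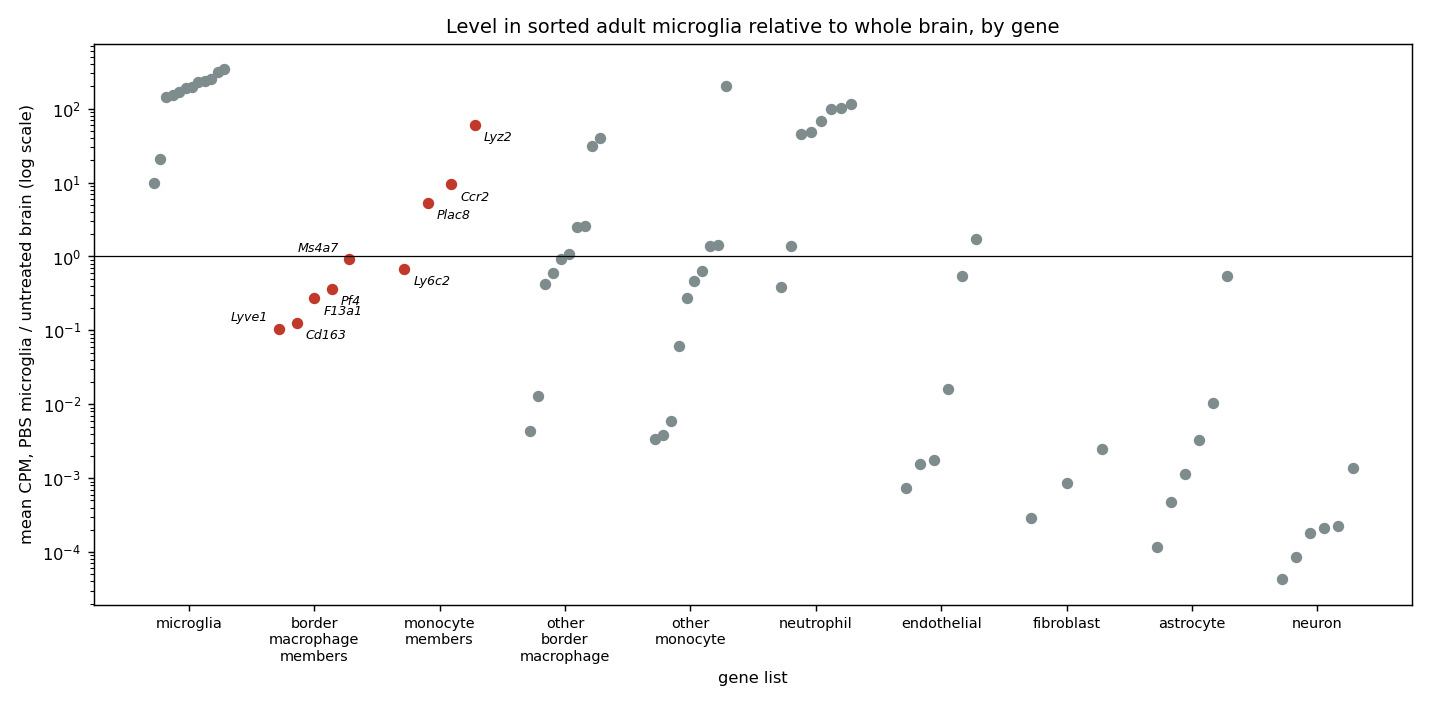
Ratio of mean CPM in PBS microglia to mean CPM in untreated brain (vertical axis, log scale) for each gene of 10 lists, 1 point per gene with the members in red and named. The 5 border macrophage members with a ratio lie between 0.106 and 0.921, below all 12 microglia genes at 9.75 to 340, and genes listed at 0 in either group are not drawn.

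Between slices in medium and adult microglia with PBS the members parted. Mean CPM was 302 against 0.676 for F13a1, 253 against 0.235 for Ms4a7 and 37.9 against 0.182 for Pf4, ratios of 447, 1077 and 209. It was 96.2 against 10.2 for Mrc1 (ratio 9.47), 5012 against 330 for Lyz2 (ratio 15.2), 3.97 against 0.258 for Cd163 (ratio 15.4) and 3.08 against 0.0561 for Lyve1 (ratio 54.9). Ccr2 was lower in the slices, at 1.11 against 6.47 CPM (ratio 0.171). In PBS microglia F13a1 rested on 36 counts, Cd163 on 14, Ms4a7 on 13, Pf4 on 10 and Lyve1 on 3, so their ratios are rough. Ly6c2 and Plac8 had no count in slices in medium, against 30 and 44 counts in PBS microglia. P2ry12 had a ratio of 0.192 and Tmem119, a microglial membrane protein, of 0.264. Age, culture, read length and the table's own normalization differ between these groups and cannot be told apart.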

How the data were processed

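RNA of 45 mouse samples in 7 groups was analysed from 3 tables of read counts per gene. Per the labels, sorted microglia were made into libraries with SMART-Seq v4 and Nextera XT and brain RNA with TruSeq mRNA, on build mm10. The slice table holds whole-number counts deposited by the authors (STAR 2.7.0a and featureCounts of Subread 1.6.4, per the submitters' processing notes). The adult microglia and brain tables hold estimated counts, not all whole, as deposited by the authors, which were rounded here. Their aligner and counter were not given in the sources used here. Groups came from the labels.

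Genes were filtered with filterByExpr (at least 10 counts in enough libraries and 15 in total), scaled by TMM and tested with edgeR 4.0.16 in R 4.3.3 (quasi-likelihood, robust). Slice groups shared 1 fit, and adult and brain tables had 1 fit each and a joined fit for the difference of the LPS effects. Called means an adjusted p (Benjamini-Hochberg, over all genes tested) under 0.05 and a fold over 1.5. Intervals are 95% intervals of the model. A fold against a group at 0 was taken against 3 counts over the group, and covers counting error only. The scripts were tested on simulated counts. No 2 libraries were identical, and replicate pairs differed by more than sampling noise (chi-square per degree of freedom 1.80 or more).

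Replicate numbers were not shown to pair samples: correlations of same-numbered deviations ran from -0.041 to 0.184 (slices), -0.033 to 0.021 (adult) and -0.078 to 0.043 (brain). The own number was the best match for 4 of 9 pairs of TNF with medium. It was so for 2 of 9 of GM-CSF with medium, 1 of 9 of TNF with GM-CSF, 1 of 4 in adult microglia and 2 of 4 in brain. Slice numbers also run in the order of the title codes, so pairing cannot be settled here. Gene positions and exon lengths came from the GRCm38 annotation, promoters from RefSeq GRCm38.p6.

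The members and lists were chosen with earlier results of these data known. Named genes are the members, the first 3 genes of each list, up to 3 called genes per list and comparison with the smallest p, the paralogues Ly6c1 and Lyz1, and the 3 genes nearest to each member by r. Of these, 1 list gene is not reported here. Alternatives were other size factors and filters, DESeq2 1.42.0, limma-voom, replicate and title code terms, and each library left out.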

Additional observations from a re-analysis of the deposited data

Results flagged for a closer look

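Among 55 sets of 4 to 10 libraries of 1 member in 1 group, 5 held a library far from the others. Chance gives about 1 in 20 where values are continuous, which does not hold for the 2 sets below in which all but 1 library were at 0 and any count stands apart. Lyve1 stood at 10.4 CPM in replicate 4 of the slices in medium, and Ccr2 at 4.42 CPM in replicate 7. In adult microglia with LPS, Cd163 was at 0.383 CPM in replicate 3 and Lyve1 at 0.147 CPM in replicate 4, with the other 3 libraries at 0 in both cases. In brain with LPS, Pf4 was at 0.588 CPM in replicate 2, against 0.211 to 0.241 CPM in the others.

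The effect of LPS differed between sorted adult microglia and brain tissue for F13a1, by 3.45 on the log2 scale, and for Ly6c2, by -2.74, in the joined edgeR fit. Part of the Ly6c2 counts in brain cannot be told apart from Ly6c1.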

How the results depend on the processing

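Over 38 member results, 913 of 969 alternative values kept direction and call, 15 lost the call, 29 gained it and 12 changed sign. The log2 fold changes that changed sign were not called in any case. They were Pf4 with TNF in title codes 1A and 1B alone (0.10) and without slice_medium replicate 8 (0.017, single-library range -0.32 to 0.017), and F13a1 with GM-CSF in codes 2A and 2B alone (-0.20) and without slice_GMCSF replicates 1 and 7 (-0.059 and -0.042, range -0.059 to 0.21). For TNF against GM-CSF they were F13a1 with total counts (-0.075) and in 1A and 1B alone (-0.17), and Cd163 without slice_GMCSF replicates 2 and 5 (0.18 and 0.06) and slice_TNF replicates 6, 7 and 11 (5.61e-05, 0.0027 and 0.00047, range -0.85 to 0.18). The cause was not tested.

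By adjusted p alone, with no fold limit, 4476 genes were called with TNF, 2892 with GM-CSF, 3486 for TNF against GM-CSF, 6703 with LPS in adult microglia, 1533 in brain and 5136 for the difference of the LPS effects. In codes 2A and 2B alone, with fewer samples, 785 genes were called with GM-CSF. Members called with TNF were 4 without the low-count filter and 1 each with the stricter filter, in 2A and 2B alone and with only the 2 groups in the fit. With GM-CSF they were 2 each with limma-voom, the replicate block, the title code term and 1A and 1B alone. For TNF against GM-CSF they were 5 without the filter and 3 to 5 with single libraries left out (5 without slice_TNF replicate 10). Without the filter, Ly6c2 and Plac8 were among the members called in both comparisons. Both entered through the TNF libraries where they are high, so the 4 and the 5 are no separate support. Lyve1 was not tested for TNF against medium with the stricter filter or with only the 2 groups in the fit. The stricter filter, which tests fewer members, left 1 in brain and 1 for the difference of the LPS effects. The median r between members was 0.11, and 0.054 after subtracting title code means.

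The replicate block used numbers that were not shown to pair the samples. It gave calls for Cd163 with TNF (-2.79), Pf4 with GM-CSF (0.63) and Pf4 for TNF against GM-CSF (-1.08). It took Lyz2 for TNF against GM-CSF below the fold limit (0.51). Total counts moved the median of all genes by 0.11 with GM-CSF and -0.17 for TNF against GM-CSF, and the share of calls that were higher from 44.8% to 64.0% and from 50.9% to 31.4%. Leaving out single slice libraries was chosen after seeing the data. Depth limits Cd163, Lyve1, Ccr2, Ly6c2 and Plac8, which rest on few counts per library.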

Other observations

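Of the 12 microglia genes set beside the members, 12 were called lower with TNF, 10 with GM-CSF and 7 with LPS in adult microglia, and 4 with LPS in brain. P2ry12 was called lower in all 4 treatments, with log2 fold changes of -3.16 with TNF, -1.56 with GM-CSF, -2.62 with LPS in adult microglia and -1.57 in brain. Mrc1, Lyve1, Ms4a7 and Ccr2 were called lower in 1 of the 4 each, and no member in more. None of them was tested in all 4: Ms4a7 was tested only in slices and Ccr2 only in adult microglia. Mrc1 was not tested in brain, and Lyve1 was not tested in adult microglia. That no member was called lower in more than 1 therefore depends in part on the filter.

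In adult microglia Gp9, from the platelet list, was lower with LPS (-2.01, adjusted p = 5.07e-06). In slices Gp9 was lower with both TNF (-1.53, adjusted p = 0.0176) and GM-CSF (-1.46, adjusted p = 0.0469). Besides the genes named above, those that varied most like Ms4a7 across the slice libraries were Sh3bgrl (r = 0.92, and 0.67 with title code means also subtracted) and its family member Ms4a6d (0.90 and 0.72). For Lyz2 they were Ctla2a (0.87 and 0.74) and Cxcl14 (0.86 and 0.42), and for F13a1 the actin-severing gelsolin Gsn (0.80 and 0.76) and the glycolytic enzyme Aldoa (0.79 and 0.68). Each value is over 29 libraries with treatment means subtracted, the second with title code means subtracted too, and is a description.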
